A study of Mus musculus with 6 samples.

Results

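The Sox genes described here are 10 members of the family that neural progenitors are known to use, taken as the rows of the gene table whose name is Sox1, Sox2, Sox3, Sox4, Sox5, Sox6, Sox8, Sox9, Sox11 or Sox21, which is 10 of 53379 rows. They were measured by RNA-seq in neural stem cells (NSCs), dividing cells that can form neurons and glia, derived from the cortex of mouse embryos at E14.5. All cells carried the Tbl1xr1 flox/flox genotype, in which LoxP sites flank exon V of Tbl1xr1, and grew as neurospheres with 10 ng/ml basic FGF and 10 ng/ml EGF. The 3 control libraries (GFP 1, GFP 1_1 and GFP 2) came from cells given a lentivirus with GFP only, and the 3 libraries labelled Cre (Cre 2, Cre 2_2 and Cre 3) from cells given one with Cre-GFP, whose recombinase removes the floxed exon. GFP+ cells were sorted in both arms. The sources do not say which embryo or culture each library came from, so the p-values measure the spread between these libraries, which may be in part technical.

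Sox proteins bind DNA through an HMG box and mostly act together with partner factors on shared sites. SoxB1 proteins (Sox1, Sox2 and Sox3) keep progenitors undifferentiated and SoxB2 (Sox21) works against them, SoxC proteins (Sox4 and Sox11) switch on neuronal genes, and SoxE proteins (Sox8 and Sox9) are known for their part in making glia. SoxD proteins (Sox5 and Sox6) lack a transactivation domain of their own and modify the action of other Sox proteins on DNA. The comparison of both arms asks what the labelled deletion of Tbl1xr1, a subunit of the NCOR corepressor complex, goes with in each of these subgroups.

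RNA of the targeted gene was not lower in the libraries labelled Cre. Tbl1xr1 stood at 2522, 2190 and 2721 normalized counts in GFP 1, 1_1 and 2 and at 3774, 3463 and 2905 in Cre 2, 2_2 and 3. All 3 values from the arm labelled Cre exceeded all 3 GFP values (log2 fold change 0.45, SE 0.14, limma adjusted p = 0.06, called in 2 of 17 alternatives). These counts cover the whole gene and do not measure exon V alone, so they do not check the deletion. The study's own checks of the deletion were not analysed here, and the arm is called the libraries labelled Cre throughout. The libraries held 7510615 to 11161497 reads on genes in GFP (median 7762821) and 11893230 to 14828100 in Cre (median 12210170). Of 10 neural stem cell markers all 10 passed the filter on low values. Of 4 markers of the dorsal telencephalon, which gives rise to the cortex, 3 passed, and Emx1 had at most 3 reads in every library.

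Promoter windows of 8 of the 10 genes were matched by symbol in RefSeq, build GRCm38.p6. Sox3 and Sox9 had no window in the table used. The 250 bases before the annotated start are shown for the SoxB1 genes Sox1 and Sox2 and for the SoxC genes Sox4 and Sox11. In each pair the log2 fold changes between the arms had opposite signs, though the 95% interval of Sox2 included 0. Also shown is the only window of Sox6 that held the Sox-type letters AACAAT. Sox6 had 6 windows, and all of them, this one included, lie inside the gene span (chr7:115470872-116040776). The only Sox5 window (chr6:143947107-143947356) also lies inside its gene span (chr6:143828425-144782287). The 2 windows nearest the 5' end of Sox6 held no match. Each sequence shown is written 5' to 3' on the strand of the gene, and capitals mark every match on either strand to a motif searched. The motifs were AACAAT as well as CATTGT (letters that Sox HMG boxes are known to bind), CCAAT (the letters bound by NF-Y), TATAAA (the TATA box), and the E2F-type letters TTCCCGC as well as TTGGCGC. The Sox-type motifs can overlap, since ACAATG is the reverse complement of the second one.
Sox1, chr8:12395269-12395518, plus strand: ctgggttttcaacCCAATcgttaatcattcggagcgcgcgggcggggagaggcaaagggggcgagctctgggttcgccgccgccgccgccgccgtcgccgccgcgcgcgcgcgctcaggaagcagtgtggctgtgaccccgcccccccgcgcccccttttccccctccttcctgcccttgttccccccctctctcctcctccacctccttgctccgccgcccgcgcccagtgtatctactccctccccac
Sox2, chr3:34649745-34649994, plus strand: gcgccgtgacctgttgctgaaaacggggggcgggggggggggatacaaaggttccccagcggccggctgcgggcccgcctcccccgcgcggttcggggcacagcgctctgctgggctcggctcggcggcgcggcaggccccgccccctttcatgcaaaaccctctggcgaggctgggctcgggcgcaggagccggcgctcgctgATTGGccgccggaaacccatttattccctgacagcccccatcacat
Sox4, chr13:28953700-28953949, minus strand: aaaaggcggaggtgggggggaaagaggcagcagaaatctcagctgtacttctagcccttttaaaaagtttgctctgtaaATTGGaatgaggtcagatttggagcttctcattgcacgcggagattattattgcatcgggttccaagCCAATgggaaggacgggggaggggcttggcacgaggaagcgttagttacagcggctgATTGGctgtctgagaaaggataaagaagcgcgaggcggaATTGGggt
Sox11, chr12:27342719-27342968, minus strand: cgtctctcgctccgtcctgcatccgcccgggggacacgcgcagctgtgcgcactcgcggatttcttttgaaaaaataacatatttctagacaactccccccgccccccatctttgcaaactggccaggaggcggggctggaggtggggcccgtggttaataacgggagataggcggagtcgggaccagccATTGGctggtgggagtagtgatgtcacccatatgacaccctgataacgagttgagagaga
Sox6, chr7:115824711-115824960, minus strand: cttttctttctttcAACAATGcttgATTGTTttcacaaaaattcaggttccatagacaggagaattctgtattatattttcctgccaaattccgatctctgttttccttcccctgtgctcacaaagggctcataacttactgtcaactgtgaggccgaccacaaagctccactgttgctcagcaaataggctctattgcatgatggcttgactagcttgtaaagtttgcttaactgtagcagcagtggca

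The Sox1 and Sox2 windows were GC-rich, with 71.2% and 72% of bases G or C, against a median of 52.4% over all 32851 windows. The Sox4 window held 50.8% and the Sox11 window 58%. CCAAT was found 237 bases before the start of Sox1, 46 before Sox2 and 60 before Sox11, and at 4 places before Sox4 (171, 104, 47 and 8 bases before the start). Those letters are common, being present in 33.8% of all windows and in 6 of the 13 windows of the members. AACAAT occurred in 9.42% of all windows and 1 member window, CATTGT in 10.7% and 3 member windows (Sox5 and Sox6), and TATAAA in 12.4% and 1 member window (Sox6). TTCCCGC (3.82% of all windows) and TTGGCGC (1.97%) occurred in none of the 13. A match is a description of the letters and not evidence of binding.

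All 10 Sox genes passed the filter on low values, with 207 to 20413 reads per gene and library. In the limma fit over 14840 genes, 3 of the 10 differed between the arms at an adjusted p under 0.05, with Sox6 and Sox9 higher and Sox1 lower in the libraries labelled Cre. Of all tested genes 9.96% were called, 4.74% higher and 5.22% lower. The groups did not overlap for 6 of the 10, 4 with all Cre libraries above and 2 with all below. Of all tested genes 30.3% did not overlap, 14.7% with Cre above and 15.5% with Cre below. The log2 fold change was positive for 8 members and negative for 2, with a median of 0.35 over the members and -0.0010 over all tested genes. In these bulk libraries, fewer cells of a type and less RNA per cell cannot be told apart.

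**Figure D1:**
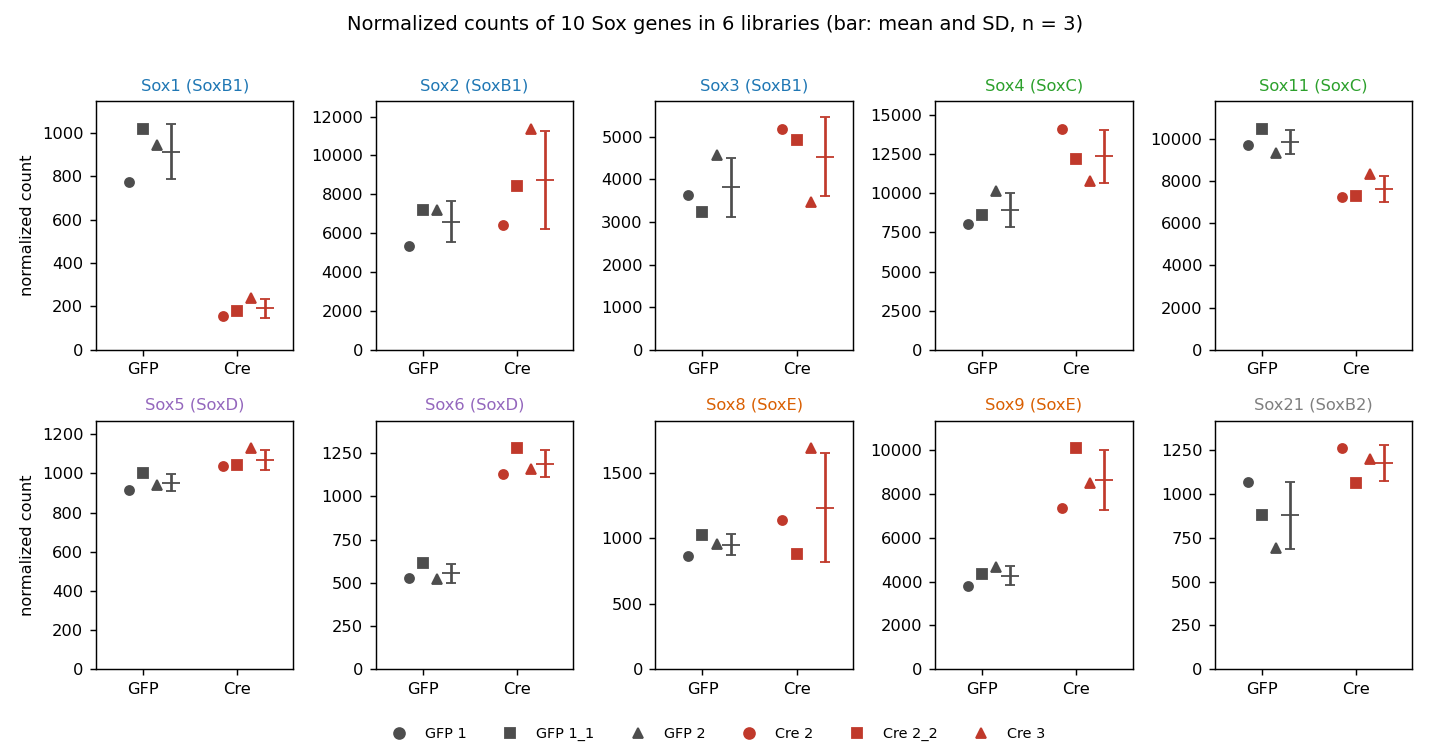
Normalized counts (y axis, linear from 0) of each of the 10 Sox genes in the 3 GFP libraries (gray) and the 3 libraries labelled Cre (red), with the mean and SD (n = 3) beside the points. Sox1 lay at 775 to 1019.6 in GFP and 155 to 238 in Cre, while Sox6 and Sox9 lay higher in all 3 Cre libraries.

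Sox1, the SoxB1 gene known to be switched off as neural progenitors leave the cell cycle, showed the largest difference of the family. It stood at 775, 1019.6 and 946 normalized counts in GFP 1, 1_1 and 2, and at 155, 178 and 238 in Cre 2, 2_2 and 3. The highest Cre library was far below the lowest GFP library. The mean was 913 ± 126 (SD, n = 3) in GFP and 191 ± 42.9 (SD, n = 3) in Cre, a log2 fold change of -2.27 (SE 0.18, 95% interval -2.66 to -1.88, limma adjusted p = 3.66e-05), or 4.82-fold lower. Sox1 was called lower under all 17 refitted alternatives, with log2 fold changes from -2.44 to -2.13.

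Sox2, the SoxB1 factor required for self-renewal of neural stem cells, did not follow Sox1. Its normalized counts were 5359, 7187 and 7189.7 in GFP 1, 1_1 and 2, and 6408, 8413 and 11374 in Cre 2, 2_2 and 3. The groups overlapped, with Cre 2 below GFP 1_1 and GFP 2 and with Cre 3 above every other library. The log2 fold change was 0.38 (SE 0.20, 95% interval -0.05 to 0.82, limma adjusted p = 0.259). The value rested on single libraries. It was 0.59 and passed the threshold without Cre 2 (limma adjusted p = 0.0268), but it was 0.17 without Cre 3 (limma adjusted p = 0.572) and 0.24 without GFP 1 (limma adjusted p = 0.617).

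Sox3, the X-linked SoxB1 gene, likewise had no called difference. It was at 3623, 3236 and 4582 normalized counts in GFP 1, 1_1 and 2, and at 5189.9, 4930.3 and 3474 in Cre 2, 2_2 and 3. Cre 3, which was the highest library for Sox2, was the lowest of the Cre libraries for Sox3 and lay within the GFP range. Sox3 had a log2 fold change of 0.24 (SE 0.18, 95% interval -0.14 to 0.63, limma adjusted p = 0.427). With single libraries left out the value ranged from 0.13 without GFP 1_1 or Cre 2 to 0.42 without Cre 3. It was 0.08 with GFP 1 and 1_1 averaged and Cre 2 and 2_2 averaged, and Sox3 was called in 0 of 17 alternatives.

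The ratio of Sox1 to Sox2 within a library compares both genes without regard to depth or scaling. It was 0.145, 0.142 and 0.132 in GFP 1, 1_1 and 2 and 0.0242, 0.0212 and 0.0209 in Cre 2, 2_2 and 3. The ratio varied little within either arm and its mean log2 value differed by -2.66, a 6.31-fold lower ratio in Cre. Sox3 to Sox2 was at 0.676, 0.450 and 0.637 in GFP and 0.810, 0.586 and 0.305 in Cre. These groups overlapped, and the log2 difference of -0.14 became 0.25 without Cre 3. The ratios are given as a description and were not tested.

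Of all SoxB1 normalized counts in a library, Sox1 made up 7.43% to 8.91% in GFP and 1.32% to 1.58% in Cre. Sox2 made up 54.9% to 62.8% in GFP and 54.5% to 75.4% in Cre, and Sox3 28.3% to 37.1% and 23.0% to 44.2%. The sum of the 3 genes was 9757 to 12718 normalized counts in GFP and 11753 to 15086 in Cre, and these ranges overlapped. Sox2 and Sox3 made up most of the SoxB1 counts in every library, and the lower Sox1 was not seen as a lower sum.

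Sox21, the SoxB2 gene that acts against SoxB1 and favors neuronal differentiation, stood at 1068, 878 and 689 normalized counts in GFP 1, 1_1 and 2. In Cre 2, 2_2 and 3 it stood at 1262, 1062 and 1202. The groups overlapped by a small margin, with GFP 1 above Cre 2_2. For Sox21 the log2 fold change was 0.44 (SE 0.16, 95% interval 0.09 to 0.79, limma adjusted p = 0.109), and 0.28 without GFP 2. No refitted alternative called it at an adjusted p under 0.05.

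The SoxC genes lay on opposite sides of 0, neither past the threshold. Sox4, which helps switch on genes of young neurons, was at 8018, 8613 and 10169 normalized counts in GFP 1, 1_1 and 2, and at 14137, 12181 and 10765 in Cre 2, 2_2 and 3. All Cre libraries were above all GFP libraries, with Cre 3 closest to them. The log2 fold change was 0.47 (SE 0.15, 95% interval 0.15 to 0.79, limma adjusted p = 0.0667), and the gene was called by DESeq2 on recovered reads (adjusted p = 0.0311) and by limma without Cre 3 (adjusted p = 0.0341).

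Sox11, the other SoxC gene, which is needed for neurite growth and survival of new neurons, was at 9726, 10493 and 9354 normalized counts in GFP 1, 1_1 and 2. It was at 7260.0, 7318 and 8360.1 in Cre 2, 2_2 and 3. All Cre libraries lay below all GFP libraries, again with Cre 3 the closest. Sox11 had a log2 fold change of -0.37 (SE 0.12, 95% interval -0.64 to -0.10, limma adjusted p = 0.0828), and it passed the threshold without Cre 3 (adjusted p = 0.0489).

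The ratio of Sox11 to Sox4 normalized counts was 1.21, 1.22 and 0.920 in GFP 1, 1_1 and 2, and 0.514, 0.601 and 0.777 in Cre 2, 2_2 and 3. Every Cre library was below every GFP library, and the log2 difference was -0.83. It was nearest to 0 without Cre 2, at -0.70, and stayed negative without any other library.

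**Figure D2:**
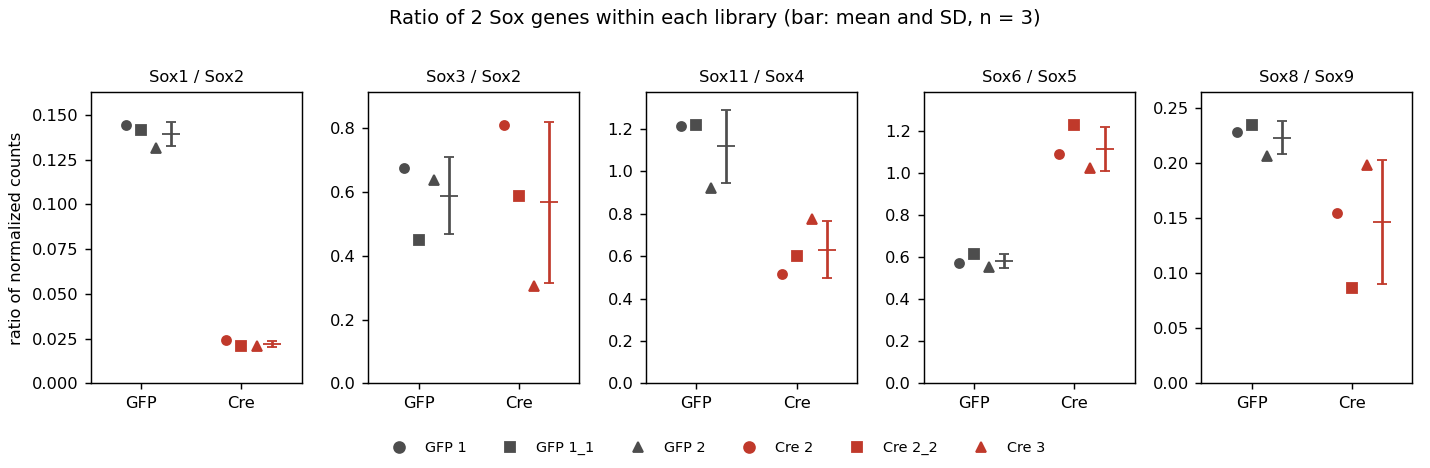
Ratio of normalized counts (y axis, linear from 0) of a pair of genes of the same Sox subgroup in each library, with the mean and SD (n = 3) beside the points. The Sox1 to Sox2 ratio was 0.139 ± 0.00687 in GFP and 0.0221 ± 0.00182 in the libraries labelled Cre, while Sox3 to Sox2 overlapped between the arms.

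Among the SoxD genes only Sox6 was called. Sox6, which is known in oligodendrocyte precursors and cortical interneurons, was at 526, 617 and 521 normalized counts in GFP 1, 1_1 and 2. It was at 1132, 1279 and 1158 in Cre 2, 2_2 and 3. All 3 Cre libraries were well above all GFP libraries, and each group was narrow. Sox6 rose 2.15-fold, a log2 fold change of 1.10 (SE 0.12, 95% interval 0.83 to 1.37, limma adjusted p = 0.000447), and it was called under all 17 refitted alternatives (log2 fold change 1.05 to 1.18).

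Sox5, the SoxD partner of Sox6, which is known for controlling deep-layer cortical neurons, stood at 917, 1002 and 942 normalized counts in GFP 1, 1_1 and 2. It stood at 1040.2, 1042 and 1129 in Cre 2, 2_2 and 3. The Cre libraries were all above the GFP libraries, but by little. The log2 fold change was 0.17 (SE 0.11, 95% interval -0.08 to 0.41, limma adjusted p = 0.392), so the interval leaves out a rise of the size seen for Sox6. The ratio of Sox6 to Sox5 was 0.574, 0.616 and 0.554 in GFP and 1.09, 1.23 and 1.03 in Cre, a log2 difference of 0.94 with no overlap.

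Of the SoxE genes Sox9 was called and Sox8 was not. Sox9, which is required for the switch of progenitors from making neurons to making glia, was at 3786, 4374 and 4656 normalized counts in GFP 1, 1_1 and 2. It was at 7352, 10100.0 and 8518 in Cre 2, 2_2 and 3. The Cre libraries spread more widely than the GFP libraries but all lay above them. Sox9 rose 2.02-fold, with a log2 fold change of 1.01 (SE 0.14, 95% interval 0.70 to 1.33, limma adjusted p = 0.00175), and was called under all 17 refitted alternatives (log2 fold change 0.89 to 1.12).

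Sox8, which works beside Sox9 in glial precursors, was at 865, 1027 and 960.2 normalized counts in GFP 1, 1_1 and 2, and at 1139, 877 and 1689 in Cre 2, 2_2 and 3. The groups overlapped, since Cre 2_2, the highest library for Sox9, was the lowest Cre library for Sox8. The log2 fold change was 0.33 (SE 0.20, 95% interval -0.11 to 0.77, limma adjusted p = 0.34), which was 0.08 without Cre 3 and 0.55 without Cre 2_2, with no call in either case. The ratio of Sox8 to Sox9 was 0.229, 0.235 and 0.206 in GFP and 0.155, 0.0869 and 0.198 in Cre, all Cre libraries below all GFP libraries, with Cre 3 just below GFP 2 (log2 difference -0.68, and -0.35 without Cre 2_2).

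**Figure D3:**
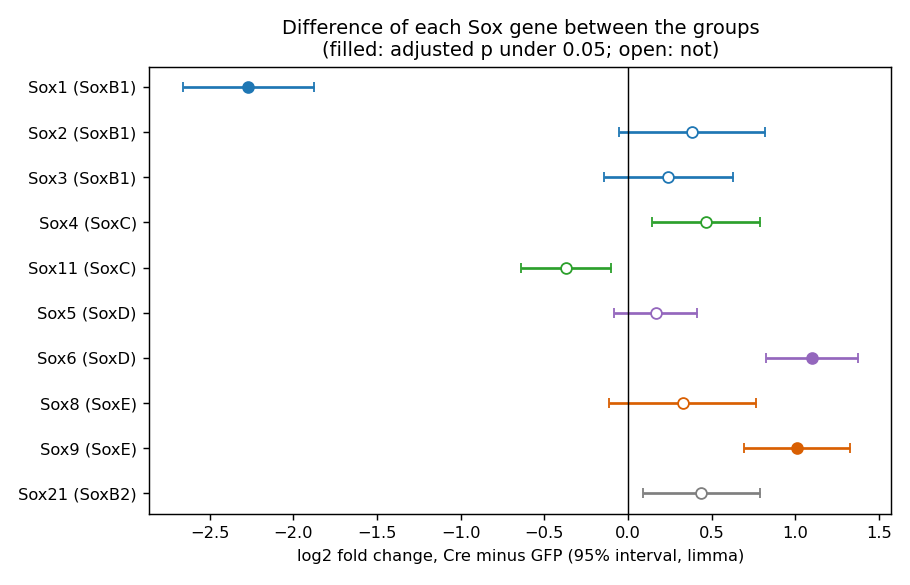
Log2 fold change of each Sox gene, the libraries labelled Cre minus GFP (x axis), with its 95% interval from limma, filled where the adjusted p was under 0.05. Sox1 at -2.27 is the one called decrease and Sox6 at 1.10 and Sox9 at 1.01 are the called increases, while the intervals of Sox2, Sox3, Sox5 and Sox8 cross 0.

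Within the arms the 10 genes had coefficients of variation of 4.60% to 21.6% in GFP (median 11.4%) and 4.75% to 33.5% in Cre (median 14.8%). Sox5 was the steadiest in both arms. Sox8 was the most variable in Cre and Sox21 in GFP.

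Levels of different genes were compared as normalized counts per kilobase of transcript. In GFP, Sox2 stood first at 2667 per kb, followed by Sox4 at 1868.5 and Sox3 at 1847. Sox11 at 1166 and Sox9 at 1033 came next, and the ranges of Sox8 at 305, Sox21 at 231 and Sox1 at 226 ran into each other. The SoxD genes were lowest, with Sox5 at 66.3 and Sox6 at 62.7 per kb, and these also overlapped. Besides these, Sox4 overlapped with Sox3 and Sox11 with Sox9, and the other neighbors in the order were apart.

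In the libraries labelled Cre the order by level per kb was Sox2 at 3539, Sox4 at 2585, Sox3 at 2194 and Sox9 at 2093, and each of these overlapped with the next. Sox11 followed at 905, below Sox9 in every library of the arm. Sox8 at 396 and Sox21 at 309 overlapped, then came Sox6 at 134 and Sox5 at 74.5. Sox1 was last at 47.2 per kb, below the range of Sox5. On these lengths Sox9 overlapped with Sox11 in GFP and lay above it in Cre, Sox6 overlapped with Sox5 in GFP and lay above it in Cre, and Sox1 went from a level near Sox21 to the end of the order.

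**Figure D4:**
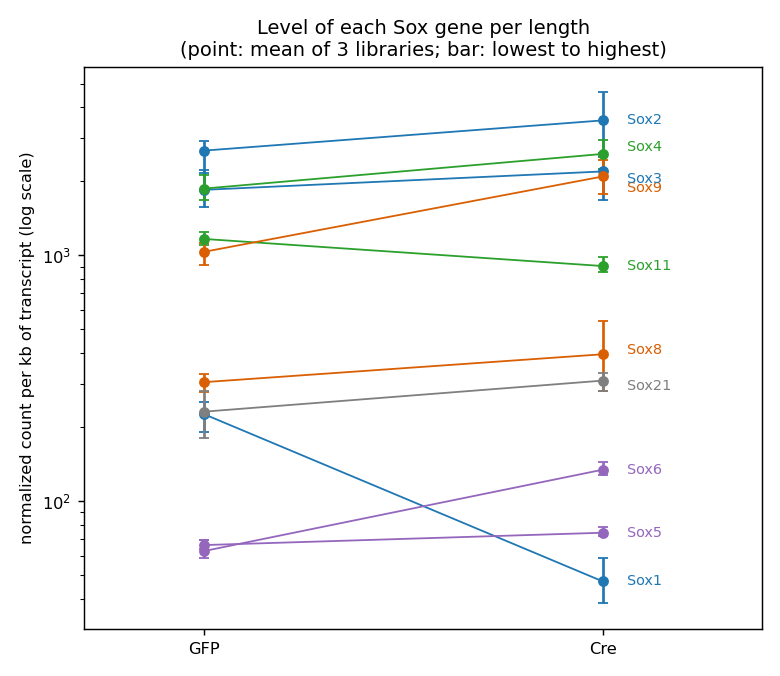
Normalized count per kb of transcript (y axis, log scale) of each Sox gene in GFP and in the libraries labelled Cre, as the mean of 3 libraries with bars from the lowest to the highest library. Sox1 goes from 226 to 47.2 per kb and Sox9 from 1033 to 2093, while Sox2 stays the highest on these lengths (2667 and 3539).

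The place of Sox11 depends on its length. The RefSeq gene has 8451 bases and GENCODE M1 lists 2013, and with the shorter length Sox11 would lead the order at 4897 per kb in GFP and 3798 in Cre, above Sox9 in both arms. The order of Sox5 and Sox6 depends on length as well, since theirs were merged exons of all listed transcripts (14376 and 8852 bases). Without division by length the mean normalized counts were 953 for Sox5 and 555 for Sox6 in GFP, and 1070 and 1190 in Cre. The length used has no bearing on the fold change of a gene.

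The kit does not mark strand, and the sources used here do not give a strand setting for the counts, so reads of a gene and of RNA from the opposite strand may not be separated. Sox1 lies at chr8:12395519-12399555 inside the span of the overlapping transcript Sox1ot (chr8:12385771-12436732, GRCm38.p6). Sox1ot, listed as Gm5607, was at 34.0, 30.7 and 21.3 normalized counts in GFP 1, 1_1 and 2, and at 6.93, 9.47 and 7.16 in Cre 2, 2_2 and 3. It moved in the same direction as Sox1, with all Cre libraries below all GFP libraries (log2 fold change -1.73, SE 0.39, limma adjusted p = 0.0184), and was called in 12 of 16 alternatives. The rest of the genes listed within 200 kb of Sox1 in the gene table had at most 1 read in any library.

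For Sox2, the overlapping transcript Sox2ot was at 120.2, 102 and 107 normalized counts in GFP 1, 1_1 and 2, and at 119.8, 119 and 119.1 in Cre 2, 2_2 and 3. It was nearly level across the libraries, with a log2 fold change of 0.12 (95% interval -0.26 to 0.51, limma adjusted p = 0.72). Exons of Sox21 share 713 bases with Gm4675 on the opposite strand, which had 43.0 to 78.0 normalized counts (log2 fold change -0.18). Sox5 shares 1330 bases with Sox5os1, which had at most 4.39, and Sox4 shares 2616 bases with Gm17419, which was not analysed here. For Sox4, Sox5 and Sox21 the division of reads between overlapping genes is uncertain. For Sox1 shared exon bases could not be measured, so this division is unknown, and for Sox2 none were listed. The strands of Sox1ot and Sox2ot were not compared with those of Sox1 and Sox2.

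The 9 other Sox genes of a list were mostly silent. Sox7, Sox14, Sox17, Sox18 and Sox30 had at most 3 reads in every library, and Sox10, the SoxE gene of committed oligodendrocyte precursors, had 1 to 4 reads in the GFP libraries and 1 to 13 in the Cre libraries. The 3 that passed the filter were the SoxC gene Sox12 (log2 fold change 0.02), the SoxD gene Sox13 (-1.06, limma adjusted p = 0.169) and Sox15 (0.20). None of the 3 was called by limma, edgeR or DESeq2, and 1 of them, Sox13, had an unadjusted limma p under 0.05, as did 25.5% of all tested genes. Within the SoxD subgroup Sox6 and Sox13 thus had values of opposite sign. Sox13 was low, at 46.7 to 80.8 normalized counts in GFP and 11.6 to 48.2 in Cre, and its groups overlapped.

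Partners that bind DNA or chromatin together with Sox proteins were compared for 9 genes, all of which passed the filter. Of the 9, 1 was called, against 9.96% of all tested genes. Chd7, a chromatin remodeler that binds Sox2, was at 2646, 2586 and 2647 normalized counts in GFP 1, 1_1 and 2, and at 3232, 3797 and 3439 in Cre 2, 2_2 and 3, all above (log2 fold change 0.41, SE 0.11, limma adjusted p = 0.0433). It was called in 9 of 17 alternatives. The median log2 fold change of the list was 0.32, with 8 positive values, against a median of -0.0010 over all tested genes.

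Among the POU-domain partners, Pou3f1 (0.37), Pou3f3 (0.32), Pou3f4 (0.42) and Pou2f1 (0.17) had positive log2 fold changes and Pou3f2 a negative one (-0.33). None of these was called by limma, edgeR or DESeq2 over the 6 libraries. Pou3f4 was called without Cre 2, its lowest library, where its value was 0.82 (limma adjusted p = 0.00129). The paired-box factor Pax6, a partner of Sox2, had a log2 fold change of 0.24. The Sox9 partner Nfia had 0.37 (limma adjusted p = 0.105) and the Sox6 partner and corepressor Ctbp2 0.07. Again limma gave no call over the 6 libraries, though Nfia was called in 1 of 17 alternatives.

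Of 5 genes known to be under SoxB1 control, Nes alone was called, against 9.96% of all tested genes. Nes, the intermediate filament gene whose neural enhancer is bound by SoxB1 with POU factors, was at 7011, 6448 and 5228 normalized counts in GFP 1, 1_1 and 2, and at 3356, 3824 and 3124 in Cre 2, 2_2 and 3. It fell in every Cre library below every GFP library (log2 fold change -0.85, SE 0.14, limma adjusted p = 0.00384) and was called under all 17 refitted alternatives. The log2 fold changes of the rest were -0.15 for the Notch effector Hes5, 0.28 for the growth factor receptor gene Egfr, -0.13 for the orphan receptor gene Nr2e1 and -0.39 for the survival and mitosis gene Birc5.

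Of 4 genes known to be under SoxC control, 3 passed the filter and none was called by limma, edgeR or DESeq2, nor had an unadjusted limma p under 0.05. The neuronal tubulin gene Tubb3 had a log2 fold change of 0.15 with a wide 95% interval of -1.07 to 1.37, Map2, which encodes a microtubule protein of dendrites, 0.19, and Tead2, a Hippo pathway factor, -0.19. Dcx, the microtubule gene of migrating neurons, was below the filter at 5 to 10 reads in GFP and 2 to 6 in Cre.

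Of 10 genes known to be under SoxD or SoxE control, 4 passed the filter and Pdgfra was called, against 9.96% of all tested genes. Pdgfra, the receptor gene of oligodendrocyte precursors, was at 174, 178 and 133 normalized counts in GFP 1, 1_1 and 2, and at 267, 356 and 265 in Cre 2, 2_2 and 3, all above (log2 fold change 0.86, SE 0.18, limma adjusted p = 0.0136). It was called in 15 of 17 alternatives. Mmd2 had a log2 fold change of 0.95 but spread widely in Cre (limma adjusted p = 0.0647). It was called in 6 of 17 alternatives, edgeR and DESeq2 among them, with values from 0.53 without Cre 2_2 to 1.24 without Cre 2. Zcchc24 had 0.17 and Nfia 0.37. The cartilage genes Col2a1, Acan, Hapln1 and Matn1 had at most 3 reads in every library, Apcdd1 was below the filter, and Col9a1 had 3 to 4 reads in the GFP libraries and 11 to 28 in the Cre libraries.

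**Figure D5:**
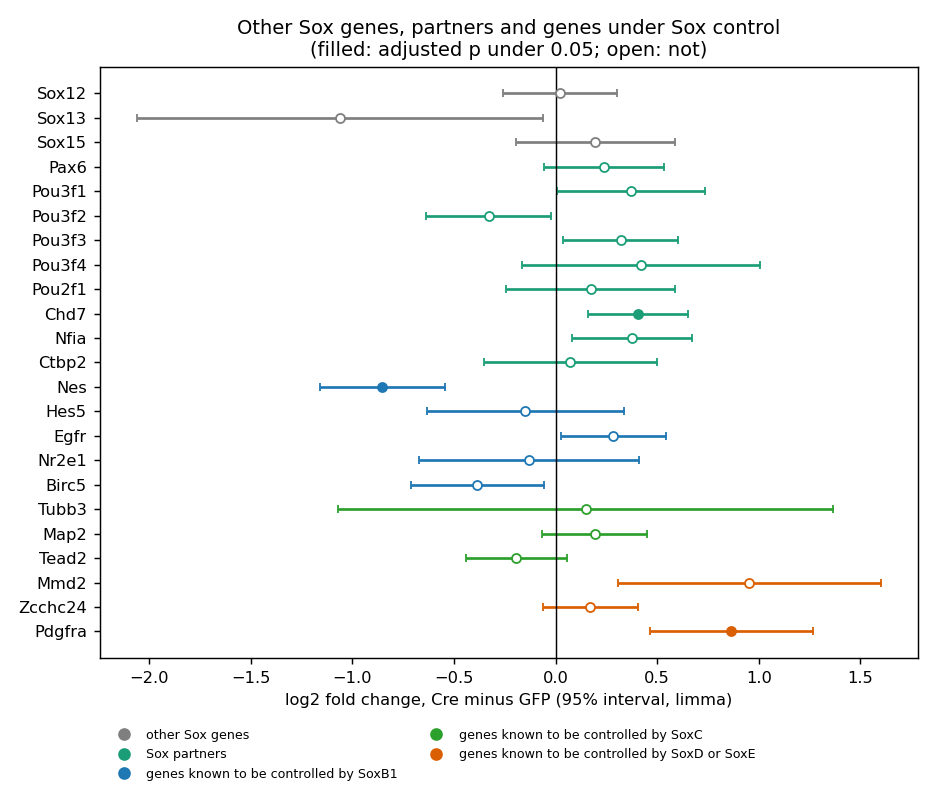
Log2 fold change, the libraries labelled Cre minus GFP (x axis), with the 95% interval from limma for the tested genes of the lists of other Sox genes, Sox partners and genes known to be under Sox control, filled where the adjusted p was under 0.05. Chd7 (0.41) and Pdgfra (0.86) are the called increases and Nes (-0.85) the called decrease.

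Some markers of other cell types also differed between the arms, where 9.96% of all tested genes were called. Of 8 astrocyte markers 6 passed the filter and 3 were higher in the libraries labelled Cre, S100b (log2 fold change 3.10, limma adjusted p = 7.39e-07), Slc1a2 (1.16, 0.000382) and Aqp4 (1.64, 0.0228). Aldh1l1 had the opposite sign and was not called (-1.65, limma adjusted p = 0.065), with 17.3 ± 2.34 normalized counts in GFP and 5.35 ± 3.30 in Cre (SD, n = 3) and all Cre libraries below all GFP libraries, and it was called in 1 of 16 alternatives. The summed level of the list was 3111 to 3411 normalized counts in GFP and 5590.2 to 6568 in Cre, of which S100b gave 227 to 255 and 1706 to 2506. The defining astrocyte gene Gfap had at most 3 reads in GFP and 2 to 12 in Cre and Gjb6 at most 3 in every library. Of 9 oligodendrocyte-lineage markers 7 passed and 3 were higher, Olig2 (0.71), Pdgfra (0.86) and Cspg4 (0.64), and the sum was 12898 to 14821 in GFP and 17814 to 20123 in Cre, with the myelin genes Mog and Mag near 0. Their part in the higher Sox6 and Sox9 was not tested.

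Of 10 neural stem cell markers, Nes was lower and the other 9 were not called, against 9.96% of all tested genes called. Their log2 fold changes were positive for 6 of the 10 and negative for 4. The summed level was 32780 to 36779 normalized counts in GFP and 30337 to 34460 in Cre. Vim, the largest part of that sum, gave 11501 to 13468 in GFP and 9606 to 10266 in Cre. Of 10 neuron markers 8 passed the filter, with Elavl4 higher (log2 fold change 2.32, limma adjusted p = 3.7e-05) and Gap43 lower (-0.76, 0.00975), a sum of 17702 to 18794 in GFP and 15273 to 17250 in Cre, and Stmn2 at 0. The 3 tested markers of the dorsal telencephalon had negative log2 fold changes (median -0.38), none called and none with an unadjusted limma p under 0.05, and Emx2 was called without Cre 2 (-0.57, limma adjusted p = 0.0199). The part of these markers in the lower Sox1 was not tested. Markers of microglia (1 of 6 tested), endothelium (1 of 5) and mesenchyme (0 of 6) gave no call and were mostly at or near 0. The tested ones were Csf1r (log2 fold change 0.25) and Kdr (-1.34, limma adjusted p = 0.0677).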

How the data were processed

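RNA-seq libraries were prepared by the authors with a TruSeq RNA v2 kit from cells given GFP (3 libraries) or Cre-GFP (3 libraries), and samples were grouped from their labels. The methods name TopHat with mm9 and mm10, while the submitters' processing notes name STAR 2.7, mm10 and DESeq2. The read counter, strand setting and annotation are not given in the sources used here. The values the authors deposited are normalized counts, a signal obtained as the read count divided by a size factor per library. The authors' own comparison stands beside them in the deposited table, with log2 fold changes and their standard errors, a test score, p-values and adjusted p-values, none of which were used.

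Of 53379 rows, 1 had no value in a library and was left out (53378 kept), and 873 had no gene name. Dividing by the worth of a single read turned 100% of values in each library into whole numbers, within 6.6e-05 (tolerance 0.001), so reads were recovered. The total gives the precision by counting error only. Within an arm, libraries differed by a chi-square per degree of freedom of 5.85 to 36.0 and were kept as separate replicates.

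limma 3.58.1 in R 4.3.3 (lmFit and eBayes with a trend) was fitted to log2(normalized count + 1) for 14840 genes with a mean of at least 10, with Benjamini-Hochberg adjustment and a threshold of 0.05. Fold changes are on that scale. Alternatives were edgeR 4.0.16 and DESeq2 1.42.0 on recovered reads, pseudocounts of 0.5 and 5, no filter, a mean of at least 50, TMM and total count scaling, averaging GFP 1 with 1_1 and Cre 2 with 2_2, an adjusted p under 0.1, and leaving out each library. The scripts were tested on simulated data. Lengths per kb were RefSeq gene spans (GRCm38.p6) for genes of a single exon, and merged GENCODE M1 exons (mm9) for Sox5, Sox6, Sox8 and Sox9. Exon overlaps came from GENCODE M1, where Sox1 is not listed. Promoter windows were from RefSeq. Figures were drawn with matplotlib 3.10.9.

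The members and gene lists were chosen with earlier results of these data known. Genes named are all members, every gene of lists of at most 10, genes overlapping a member, up to 3 called genes of each marker list with defining markers near 0, and the 3 genes with a mean of at least 50 most alike to the called members with the largest and smallest log2 fold change.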

Additional observations from a re-analysis of the deposited data

How the results depend on the processing

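Over 18 alternatives the 10 Sox genes gave 180 log2 fold changes, of which 174 stayed on the same side of the threshold. A further 6 passed it where the value reported did not (Sox2, Sox4 and Sox11), and 0 were lost or reversed. The 6 include Sox4 and Sox11 at an adjusted p under 0.1, where only the threshold changed. Members called were 3, or 4 by DESeq2, 5 at an adjusted p under 0.1, and 3 to 5 when leaving out a library (5 without Cre 3). Genes called over the table were 1478, against 660 with GFP 1 and 1_1 averaged, 885 with both pairs averaged, 2380 at an adjusted p under 0.1, and 558 (without GFP 1) to 2396 (without Cre 2) when leaving out a library. Genes called in the lists of other Sox genes, partners and controlled genes were 3, and 1 (without GFP 2 or Cre 2_2) to 7 (without Cre 2). The Sox3 to Sox2 log2 ratio difference of -0.14 ranged from -0.45 to 0.25, the reversal being without Cre 3. The cause was not tested. No setting shifted the median of all genes by over 0.0179 on the log2 scale. No paired analysis was possible because the arms share only the replicate number 2. With 3 libraries per arm, an interval that includes 0 leaves the sign of a difference undetermined.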

Other observations

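The genes whose log2 normalized counts followed Sox1 most closely over the 6 libraries were Adgre5, an adhesion receptor gene (Pearson r = 0.998), Celsr2, a seven-pass cadherin gene of planar cell polarity (r = 0.996), and Dpf1, a subunit gene of neuronal chromatin remodeling complexes (r = 0.995). The points share the difference between the arms, so these values describe likeness only. Adgre5 was at 449.7, 484 and 469 normalized counts in GFP 1, 1_1 and 2 and at 164, 183 and 213 in Cre 2, 2_2 and 3, a lower level in every Cre library, as for Sox1.

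For Sox6 the closest were Lhfpl3, known from oligodendrocyte precursors (r = 0.998), Dmxl2, which encodes a protein of synaptic vesicles (r = 0.997), and Pcdh17, a protocadherin gene (r = 0.997), again over 6 libraries that share the difference between the arms. Lhfpl3 was at 130.3, 154 and 133 normalized counts in GFP and 366, 437 and 410.1 in Cre, and Pcdh17 at 10.1, 21.9 and 10.7 in GFP and 346, 366 and 306 in Cre. Dmxl2 had a log2 fold change of 0.50 and was not called (limma adjusted p = 0.0502).

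Sox6os, a transcript named for its position at Sox6, was at 12.8, 14.6 and 18.7 normalized counts in GFP 1, 1_1 and 2 and at 7.62, 9.47 and 7.16 in Cre 2, 2_2 and 3. Its log2 fold change of -0.84 had the opposite sign to that of Sox6 and was not called (limma adjusted p = 0.243). Mpdu1, compared as a neighbor of Sox15, had a log2 fold change of 0.07 (limma adjusted p = 0.811). Shared exon bases were not measured for that pair, and whether reads of Sox15 include some of Mpdu1 was not tested.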
